A study of Mus musculus with 6 samples.

Results

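The gasdermin C cluster is a row of near-copied genes on mouse chromosome 15, and its RNA level was followed here in laser-captured ileal crypt bases, taken by position so as to be rich in Paneth cells. Mice without Nod2 (Nod2-/-), a sensor of bacterial wall components inside cells, were compared with wild-type mice (WT). Both genotypes were on the C57BL/6J background and 8 weeks old, with no treatment named in the labels. The labels name the samples laser captured Paneth cells, and tie no capture to an animal, so p-values measure only the spread between these samples. Each genotype had 3 samples, hybridised to 6 one-colour Affymetrix MoGene 1.0 ST arrays from 100 ng of RNA each. The members are all probe sets of the authors' table whose symbol field holds Gsdmc2, Gsdmc3 or Gsdmc4, and there were 4 of them among 28853 on the array. That table was selected on the difference between Nod2-/- and WT (a log2 difference of 0.41 or more in size, or an unadjusted p of 0.05 or less with 0.32 or more, from the fold thresholds in its headers), so the genotype difference of the members is given as a description. The member closest to the threshold had a log2 difference of 1.82, and probe sets outside the table carry no symbol here, so no member just outside it can be named.

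Gasdermins are proteins with a pore-forming amino-terminal part held inactive by a carboxy-terminal part. Cleavage between them by proteases such as caspases frees the pore-forming part, which inserts into membranes and can end in a lytic cell death called pyroptosis. Mice carry several close copies of the gene that is single in humans as GSDMC. In the mouse gut, Gsdmc2, Gsdmc3 and Gsdmc4 are known as epithelial genes, and worm infection and the type 2 cytokines interleukin-4 and interleukin-13, which signal through STAT6, raise them.

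The promoter window of Gsdmc3 is shown because the cluster's probe sets moved together and because STAT6 is the factor known to act on these genes. It is the 250 bases before the RefSeq gene start on the minus strand of chr15:63878559-63878808 (GRCm38.p6), written 5′ to 3′ with a TATATAA match in capitals.
Gsdmc3: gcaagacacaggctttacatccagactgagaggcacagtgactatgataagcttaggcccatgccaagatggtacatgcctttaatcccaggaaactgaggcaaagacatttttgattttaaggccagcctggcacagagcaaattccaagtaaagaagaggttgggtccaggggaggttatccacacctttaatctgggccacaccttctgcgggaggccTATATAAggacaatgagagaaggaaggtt
The letters TATATAA, a form of the TATA box, lie 29 to 23 bases before the start, and 3.04% of the 32851 RefSeq windows of the same length hold them on either strand. This form was chosen after the sequence was seen. The common form TATAAA, present in 12.4% of windows, has no match on either strand. Neither has the spacing that STAT6 prefers, TTCNNNNGAA (5.85% of windows), nor that of other STAT factors, TTCNNNGAA (7.02%). A match or its absence describes these letters in this window only. Matched by symbol, the RefSeq promoter table gave Gsdmc3 of the 3 member genes, and Gsdmc2 and Gsdmc4 are named only.

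The 4 probe sets lie on the minus strand of chromosome 15 (mm9, the build of the authors' table) within 87945 bases, and none overlaps another. The probe set named for Gsdmc2 alone spans 63655901 to 63676731. The next, at 63689282 to 63710113, is named for Gsdmc2, Gsdmc3 and Gsdmc4, and is called Gsdmc2/3/4 here. Its transcript accessions also belong to Gsdmc, the fourth protein-coding member of the cluster, whose symbol the table leaves out. Both probe sets named for Gsdmc4 and Gsdmc2 list only a Gsdmc4 transcript. The longer one, called Gsdmc4/2, spans 63722820 to 63734491, and the short one covers 91 bases at 63743755 to 63743845. The genes are near copies, so a signal cannot be assigned to a single gene where a probe set is shared. In RefSeq order the cluster reads Gsdmc, 1700065I16Rik, Gsdmc2, Gsdmcl1, Gsdmc3, Gsdmcl2, Gsdmc4 and Gsdmcl-ps, with 4 protein-coding genes alternating with 4 transcribed pseudogenes. The neighbouring protein-coding genes are Myc on the Gsdmc side and Cyrib on the Gsdmcl-ps side. No other probe set of the authors' table lies within 1 Mb of the cluster.

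All 4 probe sets were several-fold brighter in Nod2-/- than in WT. The Gsdmc2 probe set, the only one with a single symbol, had log2 intensities of 8.76, 9.98 and 8.75 in Nod2-/- replicates 1, 2 and 3. In WT replicates 1, 2 and 3 it had 4.80, 7.0 and 7.28. Every Nod2-/- array was above every WT array, and WT replicate 1 stood well below the other WT arrays. The means were 9.16 ± 0.71 in Nod2-/- and 6.36 ± 1.36 in WT (SD, n = 3 each). Nod2-/- was thus higher by 2.80 on the log2 scale, or 6.96-fold (standard error of the log2 difference from limma, 0.74).

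The Gsdmc2/3/4 probe set, the only one that lists Gsdmc3, had 8.55, 9.70 and 8.43 in Nod2-/- replicates 1 to 3, against 5.0, 6.60 and 6.71 in WT replicates 1 to 3. The genotypes did not overlap, and the same arrays were highest and lowest as for Gsdmc2. Its means were 8.89 ± 0.70 in Nod2-/- and 6.11 ± 0.96 in WT, a log2 difference of 2.79 (standard error 0.57, 6.91-fold).

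The Gsdmc4/2 probe set had 9.09, 9.64 and 8.24 in Nod2-/- replicates 1 to 3, against 5.19, 6.59 and 6.46 in WT replicates 1 to 3. Here too the genotypes were apart, and WT replicate 1 was again the lowest array. With means of 8.99 ± 0.70 in Nod2-/- and 6.08 ± 0.77 in WT, its log2 difference was the highest of the 4, 2.91 (standard error 0.50, 7.52-fold).

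The short Gsdmc4/2 probe set was dimmer, with 5.54, 7.81 and 6.13 in Nod2-/- replicates 1 to 3, against 4.49, 4.56 and 4.97 in WT replicates 1 to 3. All WT arrays lay below the median of all probe sets (5.11 to 5.15 per array), and WT replicate 1 was at the 13.8th percentile of its array. The genotypes did not overlap, but the gap between the nearest arrays was 0.57, against 1.47 to 1.72 for the other three. Its means were 6.49 ± 1.17 in Nod2-/- and 4.67 ± 0.26 in WT, a log2 difference of 1.82 (standard error 0.58, 3.53-fold). Signal over background was not analysed, so this fold has no check at its dim end. The same holds for WT replicate 1 in Gsdmc2 (4.80, the 35.2nd percentile) and Gsdmc2/3/4 (the 44.9th percentile), which also lay below the median of that array.

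**Figure D1:**
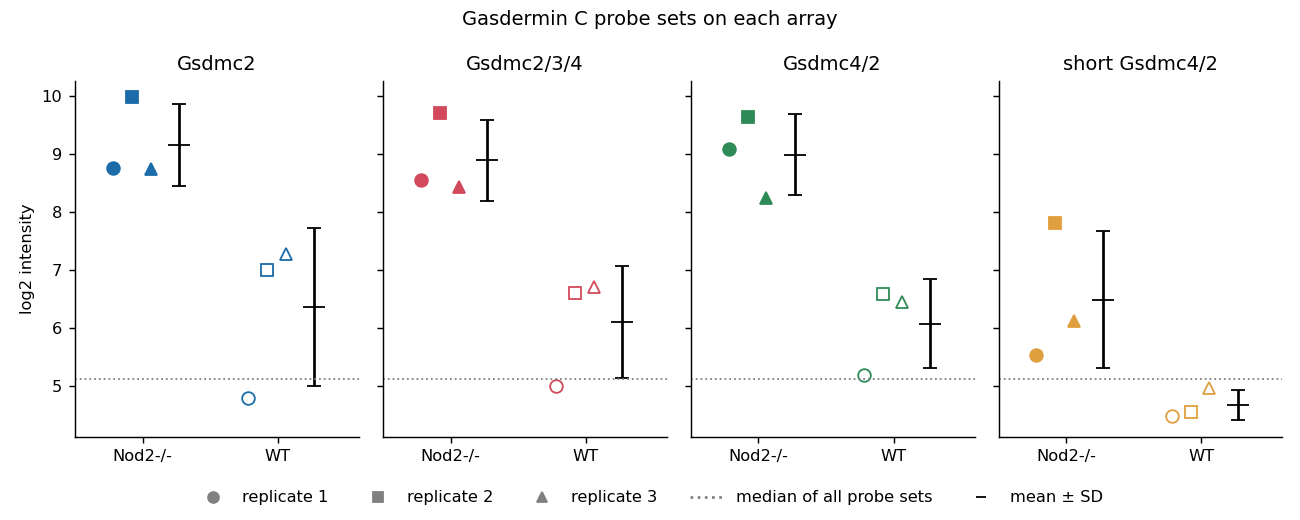
Log2 intensity (vertical axis) of the 4 gasdermin C probe sets on each of 3 Nod2-/- arrays (filled) and 3 WT arrays (open). The symbol shape gives the replicate number, bars are mean ± SD, and the dotted line is the mean over arrays of the median of all probe sets. In each panel all Nod2-/- points lie above all WT points, and WT replicate 1 is the lowest.

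Each Nod2-/- array was above each WT array in 4 of 4 probe sets, where 3.42% of all 28853 probe sets on the array had this order. The members were chosen on this contrast, so nothing is read from that count. By the size of the difference they ranked 6, 7, 8 and 14 of 28853, and the median over the 4 was 2.79, against -0.01 over all probe sets. Limma with Benjamini-Hochberg adjustment over all probe sets called 0 of 28853 (0%) at an adjusted p under 0.05, the members included. An unadjusted limma p under 0.05 was found for 1106 of the 28853, a share below the 0.05 expected without any difference. An ordinary unpaired test also called 0 after adjustment. More cells carrying these transcripts and more RNA per cell cannot be told apart in such captures.

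**Figure D2:**
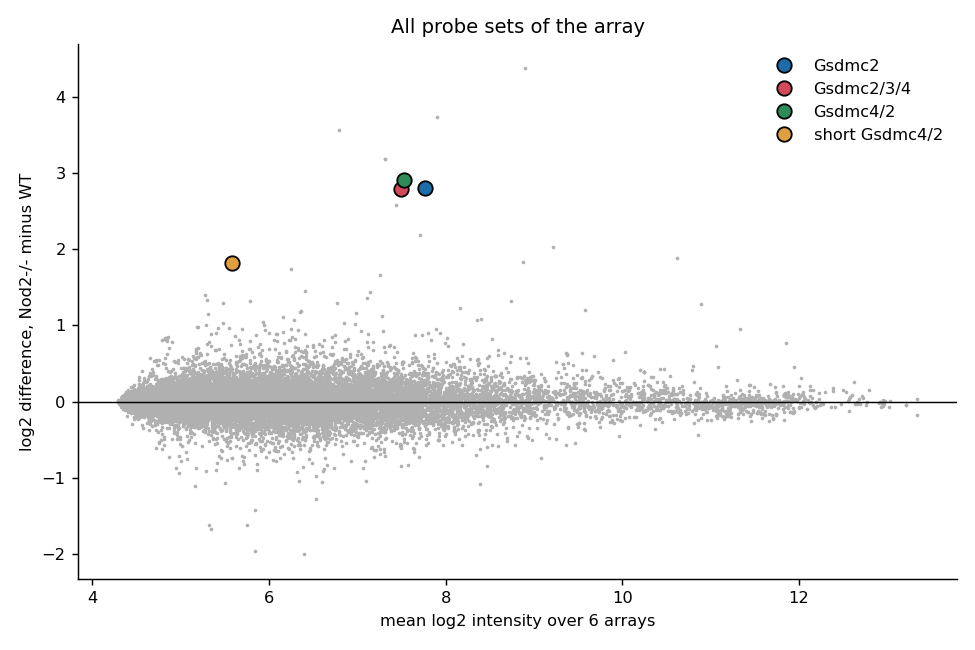
Log2 difference, Nod2-/- minus WT (vertical axis), against mean log2 intensity over 6 arrays (horizontal axis) for all 28853 probe sets (grey) and the gasdermin C probe sets (coloured). Gsdmc2, Gsdmc2/3/4 and Gsdmc4/2 lie together near 2.8, and the short Gsdmc4/2 probe set lies lower, at 1.82, and at a lower intensity.

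Along the cluster, the probe sets with long spans differed little in their genotype difference, with 2.80 for Gsdmc2, 2.79 for Gsdmc2/3/4 and 2.91 for Gsdmc4/2. The short probe set, at the Gsdmcl-ps end of the row, was lower by 1.09 than the highest of them. This spread was not tested, because every member came from the same contrast. The standard errors describe the spread between arrays for a single probe set, so they do not measure differences between probe sets on the same arrays.

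**Figure D3:**
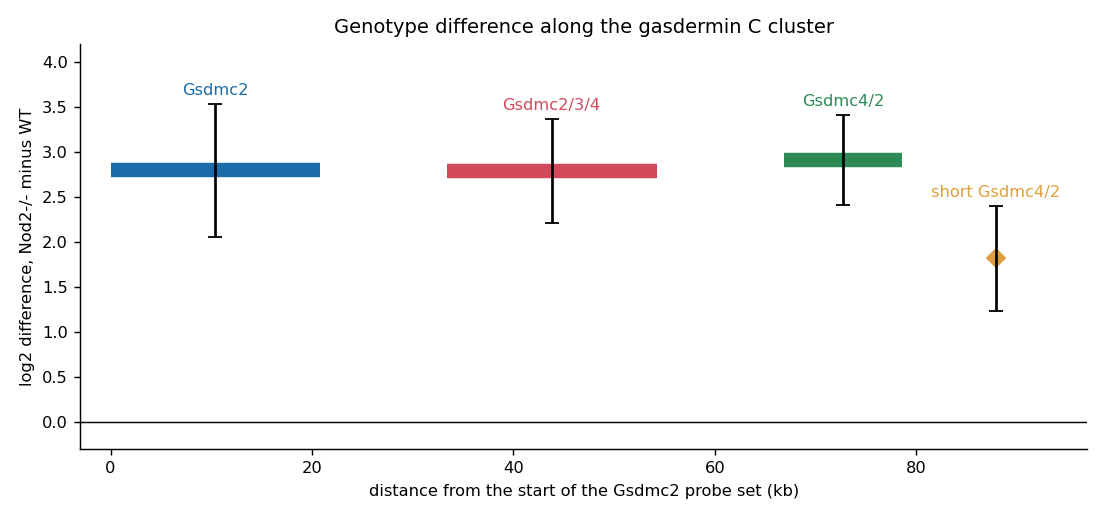
Log2 difference, Nod2-/- minus WT (vertical axis, bars give the standard error from limma), against distance in kb from the start of the Gsdmc2 probe set (horizontal axis). Coloured bars give the span of each probe set, and a diamond marks the short one. The 3 long probe sets lie between 2.79 and 2.91, and the short one at 1.82.

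Within a genotype the probe sets followed each other. Nod2-/- replicate 2 was the highest array in 4 of 4, and WT replicate 1 was the lowest in 4 of 4. For the short probe set, WT replicates 1 and 2 differed little (4.49 and 4.56) at a dim level, so its lowest array says little. Of all probe sets, 39.2% had their highest Nod2-/- value in replicate 2, and 35.8% had their lowest WT value in replicate 1. With each genotype's mean subtracted, the correlation over the 6 arrays was 0.99 between Gsdmc2 and Gsdmc2/3/4, 0.93 between Gsdmc2/3/4 and Gsdmc4/2, and 0.89 between Gsdmc2 and Gsdmc4/2. The short probe set was less close to the others, with 0.57 to Gsdmc2, 0.66 to Gsdmc2/3/4 and 0.50 to Gsdmc4/2. These points share arrays and the genes share sequence, so the values describe 6 arrays and carry no test.

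The members also varied more between replicates than most of the array. In Nod2-/- their SD lay at the 98.9th to 99.8th percentile of all probe sets, whose median SD was 0.10. In WT the SD of Gsdmc2 (1.36), Gsdmc2/3/4 (0.96) and Gsdmc4/2 (0.77) lay at or above the 99.1st percentile, against a median of 0.10, and that of the short probe set (0.26) at the 83.3rd. Over the authors' table, from which the members come, the median SD was 0.32 in Nod2-/- and 0.33 in WT. Such SDs were not particular to the members. Retnlb had 0.91 in Nod2-/- and 1.29 in WT, and Pla2g4c had 1.39 and 0.27. Clca1 had 0.21 and 0.89, and Sprr2a1/2/3 had 0.55 and 0.40. On the linear scale Gsdmc2 spanned 2.34-fold between the Nod2-/- arrays and 5.58-fold between the WT arrays, and the short probe set spanned 4.80-fold in Nod2-/- and 1.39-fold in WT.

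The arrays had been equalised by quantiles, so the rank of a probe set on its own array largely restates its log2 intensity and is no second check. Gsdmc2 stood at the 94.7th, 97.1st and 95.1st percentile of all probe sets in Nod2-/- replicates 1 to 3, against the 35.2nd, 83.9th and 87.5th in WT replicates 1 to 3. Gsdmc2 was thus among the brighter probe sets of every Nod2-/- array, and below the median of WT replicate 1 but not of the other WT arrays. Gsdmc2/3/4 ranged from the 94.1st to the 96.7th percentile in Nod2-/- and from the 44.9th to the 81.3rd in WT, and Gsdmc4/2 from the 93.3rd to the 96.6th in Nod2-/- and from the 51.9th to the 79.0th in WT. The short probe set ranged from the 61.1st to the 91.3rd in Nod2-/- and from the 13.8th to the 43.9th in WT.

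A date-like number stands in the authors' column names. Both arrays numbered 1 share a first such number and the other four share a second, with no statement of what was dated. For the pair of replicate 1, which has no replicate check, the log2 difference was 3.96 for Gsdmc2, 3.55 for Gsdmc2/3/4, 3.90 for Gsdmc4/2 and 1.05 for the short probe set. Within the number of replicates 2 and 3 it was 2.22, 2.41, 2.42 and 2.20 in the same order. Each number holds as many Nod2-/- as WT arrays, so a block for it leaves the differences over all arrays as they are by construction. The 4 probe sets lay within 0.22 of each other under the number of replicates 2 and 3, and within 2.90 under that of replicate 1.

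Single arrays moved the size of the difference. Its direction could not turn, since the genotypes did not overlap. Without WT replicate 1 the fold of Gsdmc2 was 4.05 in place of 6.96, and without Nod2-/- replicate 2 that of the short probe set was 2.24 in place of 3.53. With 1 array left out at a time, Gsdmc2 lay between 4.05-fold and 9.58-fold, Gsdmc2/3/4 between 4.71-fold and 8.52-fold, Gsdmc4/2 between 5.53-fold and 9.73-fold, and the short probe set between 2.24-fold and 4.90-fold. Group medians gave 3.38-fold for Gsdmc2, 3.86-fold for Gsdmc2/3/4, 6.19-fold for Gsdmc4/2 and 2.97-fold for the short probe set.

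**Figure D4:**
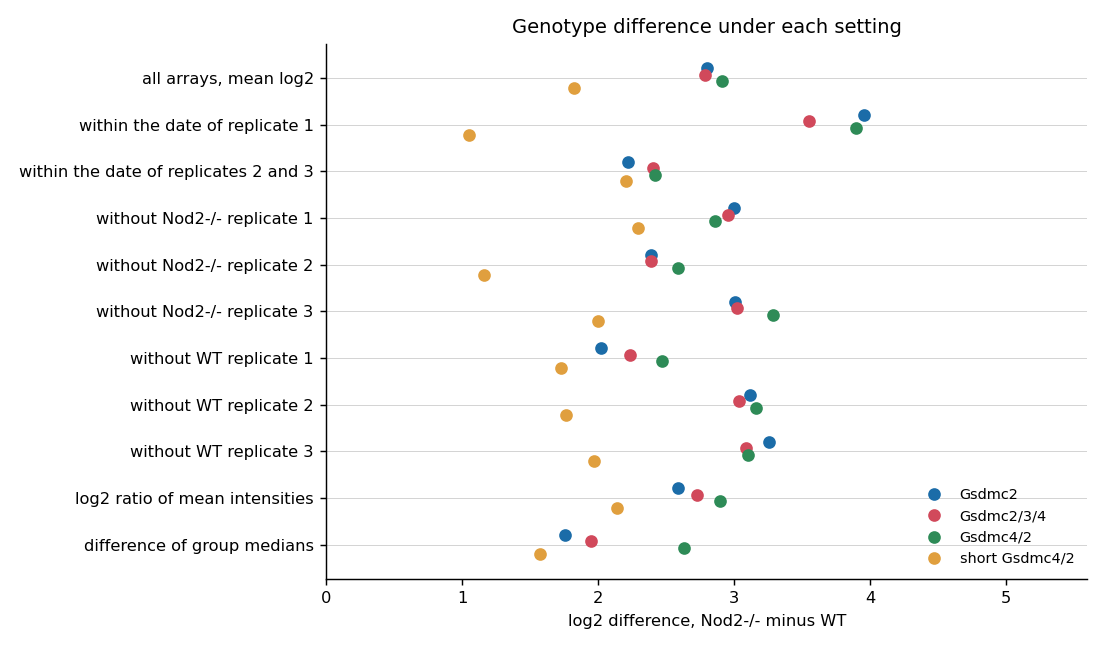
Log2 difference, Nod2-/- minus WT (horizontal axis), of each gasdermin C probe set with all arrays, within each date-like number, with 1 array left out, and with other summaries of a group (rows). The short Gsdmc4/2 probe set is lowest in each row, at 1.05 within the number of replicate 1, and meets the others within that of replicates 2 and 3.

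Among the 854 other probe sets with a single symbol, those closest to the mean of the 4 gasdermin C probe sets over 6 arrays included Inpp5a, an inositol phosphate phosphatase (r = 0.98), Wtip (r = 0.97), Vps26c, a subunit of an endosomal recycling complex (r = 0.97), Ubxn2a (r = 0.96), Ptpn18, a tyrosine phosphatase (r = 0.96), Col12a1, a collagen chain (r = 0.96), Zbtb25 (r = 0.96), Fn1, fibronectin (r = 0.96), and Ptgs1, a cyclooxygenase that is also on the tuft cell list (r = 0.96). The log2 differences of the 10 closest were much smaller than those of the gasdermin C probe sets, between 0.33 and 1.01. The most opposed were Chd8, a chromatin remodeller (r = -0.99), a probe set placed on chromosome 4 and named Tomm22 for a mitochondrial import receptor (r = -0.99), Slc17a4, a phosphate transporter family member (r = -0.99), Slc39a13, a zinc transporter (r = -0.98), and Plin2, a lipid droplet coat protein (r = -0.98). All named probe sets come from a table selected on genotype, which alone gives high correlations. An r of 0.9 or more was found for 40 of the 854 (4.68%), against 0.44% of all other probe sets of the array. With genotype means subtracted, 1 of the 10 closest genes, Fn1 (r = 0.96), was still among the closest 10, and by Spearman's rho 5 were.

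No other gasdermin had a place in the authors' table. Of 12 genes of the family, 4 were in it, all of them through the gasdermin C probe sets, and Gsdma, Gsdma2, Gsdma3, Gsdmcl1, Gsdmcl2, Gsdmd, Gsdme and Pjvk have no place in it. A gene without a place in the table either lay under its thresholds or was not measured under its symbol, so these genes are not shown to be equal between genotypes. Nod2 has no place in it either, so the targeted gene does not check the genotype labels here.

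The type 2 response list holds genes that respond to type 2 cytokines in the gut, and also cytokine, receptor and tuft cell genes and Stat6. Of its 36 members, 11 were in the table, on 11 probe sets. Each of the 11 was higher in Nod2-/-, where 653 of the 1053 probe sets of the table were. Their median difference was 2.03 (log2), against 0.44 over the table. Near copies of Sprr2a enter this median through several probe sets, so it is not a median over separate genes. The genotypes did not overlap in 8 of the 11, against 43.2% of the probe sets of the table. They overlapped in Mcpt2, Dclk1 and Ccl11, and Ccl11 in Nod2-/- replicate 1 (8.34) was below every WT array. None of the 11 was called by limma over all probe sets. The list was picked with these results known, so these counts describe it only. The Sprr2a1/2/3 probe set, for small proline-rich proteins of epithelia, had 11.63, 11.09 and 10.53 in Nod2-/- replicates 1 to 3, against 6.25, 6.96 and 6.92 in WT replicates 1 to 3, and 2 further probe sets shared by Sprr2a1 and Sprr2a3 differed by 3.18 each. Its Nod2-/- arrays did not have the order of the gasdermin C probe sets, since replicate 1 was highest.

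Pla2g4c, a phospholipase, had 8.24, 10.11 and 7.39 in Nod2-/- replicates 1 to 3, against 4.80, 4.93 and 5.32 in WT replicates 1 to 3. It shared with the gasdermin C probe sets the highest array, Nod2-/- replicate 2, and the lowest, WT replicate 1. Its values in WT replicates 1 and 2 differed little and lay below the median of their arrays (5.14 and 5.11), so its lowest array says little. Retnlb, a goblet cell protein that acts against bacteria and worms, had 10.75, 9.58 and 8.97 in Nod2-/- replicates 1 to 3, against 4.71, 7.28 and 6.13 in WT replicates 1 to 3. It shared the lowest array but was highest in Nod2-/- replicate 1. Clca1, a secreted goblet cell protein, had 10.23, 10.44 and 10.01 in Nod2-/- replicates 1 to 3, against 8.04, 9.16 and 7.39 in WT replicates 1 to 3, and its lowest array was WT replicate 3. The other members were Mcpt1 (log2 difference 1.34), Mcpt2 (0.98), Pou2f3 (0.64), Dclk1 (0.53) and Ccl11 (0.51). The receptor subunits Il4ra, Il13ra1 and Il13ra2, Stat6 and the cytokine genes Il4, Il5, Il13, Il25, Il33 and Tslp have no place in the table.

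**Figure D5:**
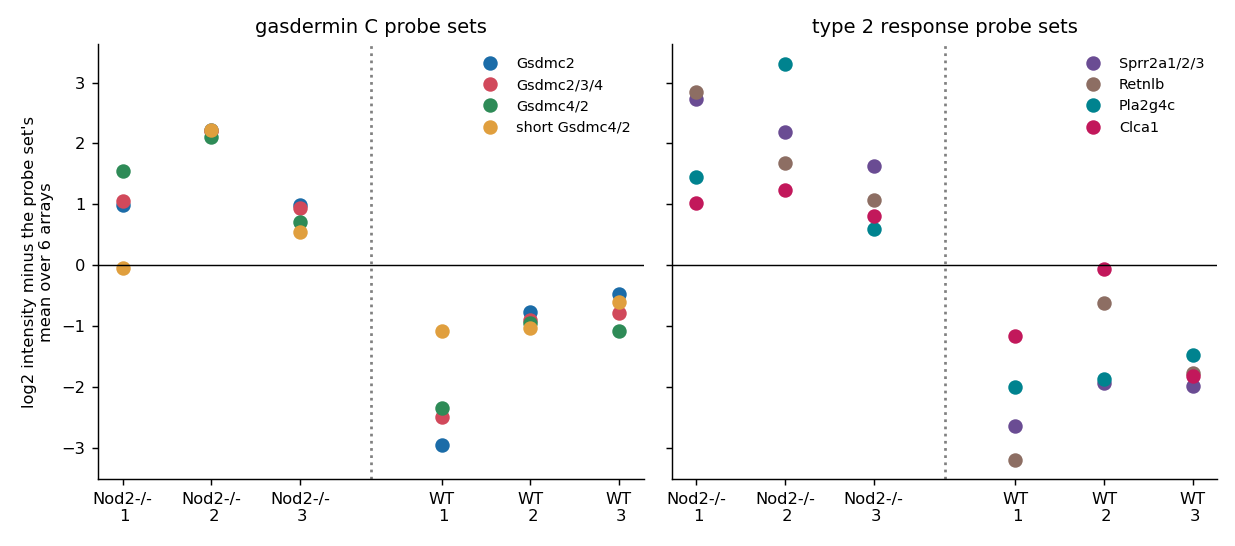
Log2 intensity minus the probe set's mean over 6 arrays (vertical axis) on each Nod2-/- and WT array (horizontal axis) for the gasdermin C probe sets (left) and for Sprr2a1/2/3, Retnlb, Pla2g4c and Clca1 (right). All gasdermin C probe sets are highest in Nod2-/- replicate 2 and lowest in WT replicate 1, and of the genes on the right only Pla2g4c shares both. For Pla2g4c and the short probe set, WT replicates 1 and 2 differ little at a dim level.

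Markers of several cell types were also higher or lower in Nod2-/-. As a background to the counts below, the table holds 3.65% of all probe sets, and 653 of its 1053 were higher in Nod2-/-. The table held 10 of 15 tuft cell markers, each higher in Nod2-/-. Their summed linear intensity was 497 to 1019 in Nod2-/- and 408 to 439 in WT. Single markers were less apart than the sums. The genotypes did not overlap in 5 of the 10, against 43.2% of the probe sets of the table. The largest differences were those of Rgs13, Spib, Alox5ap and Sh2d6, and in each of these Nod2-/- replicate 3 was below a WT array. The table held 6 of 12 goblet cell markers, with sums of 4006 to 5516 in Nod2-/- and 2276 to 4385 in WT. Of those that differed most, Retnlb, Clca1 and Ccl9 were higher and Zg16 was lower, and over the list 4 were higher and 2 lower. Of 6 markers of mucosal mast cells, Mcpt1 and Mcpt2 were in the table, with sums of 60.0 to 355 in Nod2-/- and 48.9 to 52.7 in WT. In both, the high array was Nod2-/- replicate 3, which was not the high one for any gasdermin C probe set. Enterocyte markers had 5 of 14, 4 of them lower (Fabp6, Otc, Anpep and Fabp2), with sums of 721 to 1065 in Nod2-/- and 1053 to 1708 in WT.

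Fibroblast and matrix markers had 7 of 11 in the table, all higher, with sums of 2136 to 2990 in Nod2-/- and 1088 to 1907 in WT, led by Fn1, Igfbp5, Bgn and Lum. Like the gasdermin C probe sets, this sum was highest in Nod2-/- replicate 2 and lowest in WT replicate 1, while the tuft cell sum was highest in Nod2-/- replicate 1 and lowest in WT replicate 1. Lum, unlike the sum of its list, was highest in Nod2-/- replicate 3 (7.99), and Igfbp5 was almost level in Nod2-/- replicates 1 and 2 (7.23 and 7.25). The enterocyte and stem cell sums had the opposite order to the fibroblast and matrix sum, lowest in Nod2-/- replicate 2 and highest in WT replicate 1. Sums weigh bright genes most, and the markers did not all share this order. Anpep, Otc and the stem cell markers Lgr5 and Slc14a1 were lowest in Nod2-/- replicate 2. Fabp2, Rgmb and Tnfrsf19 were lowest in Nod2-/- replicate 3, and Fabp6 in WT replicate 3. The enterocyte marker that was higher in Nod2-/- was lowest in WT replicate 1. Enteroendocrine markers had 5 of 9, 4 higher and 1 lower, with sums of 582 to 1540 in Nod2-/- and 444 to 1011 in WT. Of 9 stem cell markers 4 were in it, all lower (sums of 470 to 956 in Nod2-/- and 796 to 1385 in WT), and of 12 leukocyte markers 2, Cd74 and Kit, both higher (925 to 1830 in Nod2-/- and 413 to 1427 in WT). Smooth muscle markers had 0 of 4. Of 18 Paneth cell markers, Mptx1, Reg4, Reg3g and Pnliprp2 were in the table, all higher, with sums of 8428 to 16307 in Nod2-/- and 5816 to 7659 in WT. Lyz1, Mmp7 and the alpha-defensins have no place in it, so the labelled cell type was not checked by its defining markers here. Single markers also overlapped between genotypes in lists whose sums did not. The genotypes were apart in 4 of 7 fibroblast and matrix, 2 of 4 Paneth cell and 1 of 2 mast cell markers (43.2% over the table). The part of these cell types in the gasdermin C difference was not tested.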

How the data were processed

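The deposited intensities cover 28853 probe sets and 6 arrays, and were made by the authors with RMA, per the submitters' processing notes. RMA is a method that corrects background, equalises arrays by quantiles and summarises probes, and the software is not given in the sources used here. They are linear (18.8 to 12280), so log2 was taken here. The authors' second table, per the file headers for the MoGene 1.0 ST array and mm9, holds 1053 probe sets (3.65%) with symbols and positions, and its intensities equal the first (relative tolerance 0.001). Per the file headers it also holds a ratio to the WT median, a log2 value minus that median, folds, a signed fold score and unadjusted p-values, none used as results. Symbols were updated by Entrez number through RefSeq (GRCm38.p6), which changed 116 of 855 single names.

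Genotype was the only term in limma 3.58.1 (R 4.3.3) on all probe sets, without a filter, after a test on simulated data. Fold is 2 to the power of the difference of mean log2 values, with standard errors from limma, and values are mean ± SD. Descriptions were made in Python 3.11.15. The array number limits the precision. Median intensity per array was 34.5 to 35.4 and correlations between arrays, across probe sets, were 0.971 to 0.987.

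The members and lists were chosen with earlier results of these data known. Named genes are the members, the 10 most alike and 5 most opposed by Pearson's r, neighbours within 1 Mb, and members of the lists, up to 4 per cell type by size. Some genes that the rule names are not reported here. Summed list intensities add the linear values of the probe sets in the table.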

Additional observations from a re-analysis of the deposited data

How the results depend on the processing

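The alternatives were a replicate block, the date-like number as a block or within it, 1 array left out, centring, quantile normalization again, the ratio of mean intensities and group medians. Nod2-/- and WT did not overlap in any of the 4 gasdermin C probe sets, so leaving out arrays or summarising groups otherwise could not turn the direction, which is no sign of stability. The median log2 difference of the 4, 2.79, was 3.72 within the number of replicate 1 and 1.85 from group medians, and lay between 2.13 and 3.10 with 1 array left out. The spread between the 4 was 1.09 over all arrays, 0.22 within the number of replicates 2 and 3, 2.90 within that of replicate 1, and 0.71 to 1.43 with 1 array left out. The cause was not tested.

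The count of probe sets called, 0, was 3 with dim probe sets left out, 3 with a trended and robust prior, and 0 to 2 with 1 array left out, and no gasdermin C probe set was among them. No pairing of samples by replicate number is stated. Correlations of same-numbered deviations were 0.20, -0.02 and 0.06 for replicates 1, 2 and 3, which cannot exclude a pairing. Both arrays of replicate 1 share a date-like number of their own. With the replicate block the count was 0. The median, 2.79, cannot move under that block, because each number holds 1 array of each genotype. Of the 10 most alike genes, 1 remained with genotype means subtracted and 5 by Spearman's rho. Precision is limited by 3 arrays per group, and dim values, those of the short probe set in WT and of Gsdmc2 and Gsdmc2/3/4 in WT replicate 1, have no check against background. The differences of these 3 probe sets within the number of replicate 1 rest on such values. That of Gsdmc4/2 rests on a WT value just above the median of its array (5.19, the 51.9th percentile), also without such a check.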
